A study of Gallus gallus with 16 samples.

Results

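Gene expression at the highest and the lowest metformin dose was compared in 8 of the 16 libraries of the study, namely the 4 libraries at 2 mM and the 4 at 0.5 mM metformin, with the same primary cell line at both doses forming a pair. The untreated and 1 mM libraries were not part of this main comparison. Their levels are given to place it, and they were used to check the line labels and to centre the gene length slope described below. Some alternative fits of the same comparison also took in the 1 mM libraries, or both these and the untreated libraries. Such fits are named where their results are given. All libraries came from COVCAR cells, which grew out of the ascites of hens with ovarian cancer (labelled ovarian endometrioid adenocarcinoma). The 4 lines C5, C7, C9 and C11 each came from 1 Leghorn hen and were used in passage 3, or passage 2 for C11. Cells of both groups were kept for 24 h in serum-free medium with bovine insulin and recombinant human epidermal growth factor on ultra-low attachment plates, in which they can form spheres. The only labelled difference was 0.5 mM against 2 mM metformin. There was 1 library per line and dose, so n = 4 lines, and how replicate wells became 1 library is not stated.

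Metformin is a biguanide used against diabetes. It inhibits complex I of the mitochondrial respiratory chain and, as cellular energy falls, activates the kinase AMPK, which restrains mTOR, lipid synthesis and growth. In ovarian cancer, cells in ascites invade the peritoneal lining with the help of matrix metalloproteinases and plasminogen activators, so proteases, matrix genes, angiogenic factors, cytokines, cell cycle genes and energy metabolism were read as gene lists.

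The totals were 34724071 to 38257947 counts on genes per library, 15027 to 16903 genes had a count, and mitochondrial genes took 3.747% to 6.727% of the counts. Of the 6 epithelial markers in the table, KRT7 was high (327 to 798 CPM at 0.5 mM and 243 to 798 at 2 mM, CPM being counts scaled to equal library totals with TMM factors), while EPCAM, ESRP1 and CLDN3 stayed at or under 0.238 CPM. KRT18 was at 0.242 to 18.1 CPM, highest in C7 and C9 at 2 mM, and CDH1 at 0.483 to 5.79 CPM, highest in C11 at 2 mM, while COL1A1, a fibroblast collagen, lay between 1953 and 27498 CPM. Long and short genes shifted against each other between libraries. This shift was measured as the slope of log2 CPM, normalized and centred per gene over all 16 libraries, on log2 exonic length. The same slopes were the covariate in the fits with the length slope. Between the doses, the slope changed sign in 3 lines, from −0.121 to 0.236 in C5, from 0.181 to −0.210 in C7 and from 0.117 to −0.112 in C11. The slope stayed positive in C9 (0.203 and 0.155). On the leading principal component (43.1% of the variance), C5 at 0.5 mM, C7 at 2 mM and C11 at 2 mM lay apart from the other 5 libraries.

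Line labels were checked with genes that set a line apart by at least 4-fold in the 8 libraries at 0 and 1 mM, a check chosen after the data were seen. RDM1 was the 1 gene low in C11, and it was also lower in C11 at 0.5 mM (0.976 CPM) and at 2 mM (0.599) than in the 6 libraries of the other lines. Of 45 genes high in C11, 44 were above those 6 libraries at 2 mM but only 4 at 0.5 mM. The library C11 at 0.5 mM thus lacked much of what the other C11 libraries share. IL1B, an inflammatory cytokine, was at 1717 CPM in C11 without metformin, 5.91 at 0.5 mM, 458 at 1 mM and 1672 at 2 mM, and the macrophage gene LYZ was at 72.4, 0.449, 102 and 95.4 CPM. In C5, 15 of 16 genes low in that line were below the other lines at 0.5 mM and 4 of 16 at 2 mM. Among 17 genes high in C5, 12 were above the other lines at 0.5 mM and 4 at 2 mM. The 6 genes high in C7 were all above the other lines at both doses. For the 2 genes low in C7, 0 were below the other lines at 0.5 mM and 2 at 2 mM. Among 10 genes low in C9, 9 were below the other lines at 0.5 mM and 7 at 2 mM. Of 177 genes high in C9, 70 were above the 6 libraries of the other lines in C9 at 0.5 mM and 28 at 2 mM. The median level of these 177 genes was 27.1 to 35.7 CPM in the 5 libraries with a length slope above 0, which besides both of C9 are C7 and C11 at 0.5 mM and C5 at 2 mM, and 3.44 to 5.17 CPM in the other 3. In C5, C7 and C11, the libraries at 0 and 1 mM had medians of 2.64 to 5.27 CPM, so C7 at 0.5 mM, C11 at 0.5 mM and C5 at 2 mM were unlike the rest of their lines in these genes. Lowest and highest medians with 1 line left out are therefore given for each gene list, and the part of these library differences in the results was not tested.

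**Figure D1:**
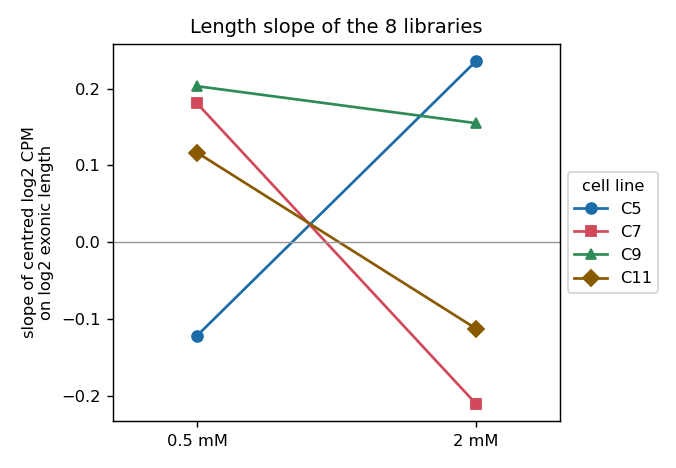
The slope of centred log2 CPM on log2 exonic length (vertical axis, no unit beyond log2 per log2) in the 8 libraries at 0.5 and 2 mM metformin (horizontal axis), with 1 line per cell line. It crosses 0 upward in C5 and downward in C7 and C11, and stays above 0 in C9.

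Across 13340 genes tested, 1 gene passed the criteria of an unadjusted p under 0.01 and an adjusted p under 0.05 in edgeR's paired quasi-likelihood test (two-sided, 4 pairs, Benjamini-Hochberg adjustment), which is 0.0075% of the genes. That gene was MMP7, and it was lower at 2 mM. An unadjusted p under 0.05 was found for 904 genes (6.78%), 465 higher (3.49%) and 439 lower (3.29%). Fold changes are given as the edgeR log2 fold change ± a standard error. This error is the absolute log2 fold change divided by the square root of the test's F statistic, so it restates the test. The median log2 fold change over all genes was −0.0422. Paired DESeq2, run as an alternative on 19340 genes, called 243 (1.26%), of which 148 were higher (0.765% of the genes) and 95 lower (0.491%). Of the 243, 213 had the same direction in all 4 lines. Among the 13340 genes tested by edgeR, 8.46% were higher and 7.65% lower in all 4 lines. A paired test on these same libraries favours genes whose lines agree, so the 213 are not independent evidence. When the 4 libraries at 1 mM joined the fit to estimate the spread, edgeR called 0 of 13826 genes, with 1705 at an unadjusted p under 0.05 and a smallest adjusted p of 0.1351, while DESeq2 called 519. The difference between the doses was not alike in the 4 lines as a whole. A response to the dose and the library differences described above cannot be told apart here. Over 10607 genes, the difference between the doses correlated at −0.598 between C5 and C7 and at −0.244 between C5 and C11, and the highest correlation was 0.436, between C7 and C11, the points being genes that share libraries of one length slope.

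MMP7 encodes matrilysin, a secreted metalloproteinase that cleaves matrix proteins and cell surface proteins. Its gene (ENSGALG00000017184) lies on chromosome 1 of GRCg6a from 183873073 to 183877709 on the plus strand. At 0.5 mM, MMP7 was at 38, 34.7, 4.42 and 50.5 CPM in C5, C7, C9 and C11, the order used for all values by line. At 2 mM, it was at 0.752, 1.13, 0.105 and 0.912 CPM, from 28, 36, 4 and 32 counts. All 4 libraries at 2 mM lay below all 4 at 0.5 mM, and C9 was the lowest line at both doses. MMP7 fell by 5.43 on the log2 scale (± 0.321, edgeR adjusted p = 0.0358), and the single lines gave differences of −5.61, −4.90, −5.07 and −5.75. In bulk RNA, fewer cells of a type and less RNA per cell cannot be told apart. The call was lost without any 1 line (adjusted p = 0.115 without C5, 0.159 without C7, 0.52 without C9 and 0.615 without C11), without the pairing (0.249) and with the length slope as a covariate (0.0524), while the log2 fold change stayed between −5.62 and −5.14 in all 14 alternatives. An exact sign-flip test over 4 pairs cannot give a two-sided p below 0.125.

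The genes next to MMP7 include 4 more metalloproteinases, a neighbourhood looked at after its values were seen. Over 146.7 kb, MMP13, MMP10, MMP1, MMP27 and MMP7 follow each other on the plus strand. MMP27 (from 183804597), a stromelysin-like enzyme, was at 24.5, 8.66, 4.34 and 14.5 CPM at 0.5 mM and 2.85, 1.64, 0.184 and 2.57 at 2 mM, without overlap (log2 fold change −3.06 ± 0.46, adjusted p = 0.628). MMP1 (from 183793774), the interstitial collagenase, was at 680.1, 49, 64.1 and 179 CPM at 0.5 mM and 39.5, 5.33, 25.1 and 39.5 at 2 mM, also without overlap (log2 fold change −2.71 ± 0.503, adjusted p = 0.628). Both were lower at 2 mM in every line, and neither passed the test. MMP13 (from 183730975), collagenase 3, was low throughout, at 0.277, 1.36, 0.399 and 0.686 and then 0.188, 0.504, 0.237 and 0.228 CPM (log2 fold change −1.09 ± 0.49). MMP10 (from 183766300), a stromelysin, went another way and did not pass the filter on low counts, with 1, 23, 0 and 2 counts at 0.5 mM and 14, 0, 0 and 824 at 2 mM. Its high library was C11 at 2 mM, and it was also high in C11 at 0 and 1 mM (31.8 and 8.6 CPM). The flanking genes with counts differed little, with log2 fold changes of 0.19 for DCUN1D5, −0.0093 for TMEM123 and −0.0322 for BIRC3.

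Of the 23 metalloproteinases, inhibitors and related proteases in the table, 21 were tested. MMP7 was the 1 member called (0.0075% of all genes), and paired DESeq2 (1.26% of all genes) called MMP1, MMP27 and PLAU as well. In all 4 lines 9 members (42.9%) were lower, where 7.65% of all genes were, and none was higher in all 4. The 2 mM libraries of 4 members (19%) lay below all those at 0.5 mM, where 2.88% of all genes did. The list's median log2 fold change was −0.53, and its medians in the single lines were −0.50, −1.17, −0.69 and −0.54. It was −0.84 without C5 and −0.33 without C7, the lowest and highest with 1 line left out. Urokinase (PLAU), which turns plasminogen into the protease plasmin, was at 21.7, 20.9, 32.5 and 57 CPM at 0.5 mM and 2.93, 4.03, 6.14 and 31 at 2 mM (log2 fold change −2.14 ± 0.397, adjusted p = 0.628). It was lower in every line, and the groups overlapped only through C11. TIMP4, a metalloproteinase inhibitor, was at 4.52, 2.36, 2.17 and 4.54 and then 1.45, 1.35, 1.58 and 1.28 CPM (log2 fold change −1.18 ± 0.414). MMP2, the abundant gelatinase A, was at 1739, 936, 2434 and 1169 CPM at 0.5 mM and 1565, 621, 1686 and 805 at 2 mM (log2 fold change −0.45 ± 0.247). The other gelatinase, MMP9, was at 74.3, 191, 20.9 and 188 CPM at 0.5 mM and 72.2, 221, 40 and 384 at 2 mM, higher in 3 of 4 lines (log2 fold change 0.53 ± 0.261).

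**Figure D2:**
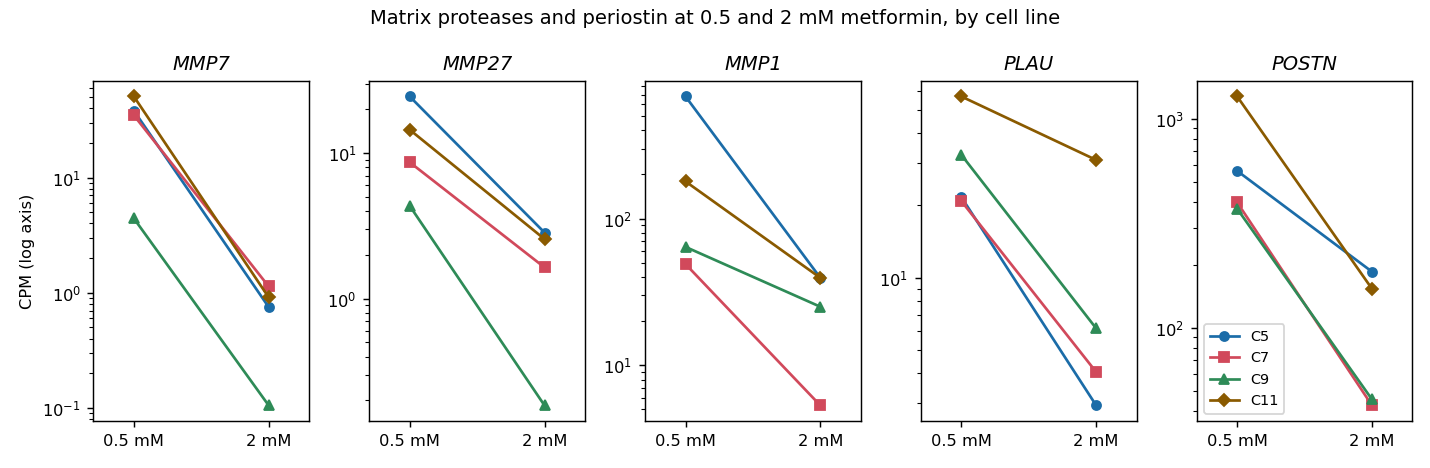
Levels in CPM (vertical log axis, a scale of its own for each gene) of MMP7, MMP27, MMP1, PLAU and POSTN at 0.5 and 2 mM metformin, with 1 point per library and a line joining the 2 libraries of a cell line. All 20 joins slope down, and only MMP7 passed the edgeR test.

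Periostin (POSTN), a matrix protein made by stromal and mesenchymal cells that binds integrins, stood second among the genes lower at 2 mM. It was at 562, 397, 370.3 and 1275 CPM at 0.5 mM and 185, 42.5, 45.4 and 153 at 2 mM, so the groups did not overlap (log2 fold change −2.74 ± 0.356, adjusted p = 0.628). It passed the test in 3 other edgeR fits, with an adjusted p of 0.025 over all 16 libraries, 0.0301 over the 12 treated libraries with the length slope, and 0.0348 over the treated libraries without C5. COL3A1, a fibrillar collagen, was at 13549, 4345, 7068 and 3397 CPM and then 2126, 2451, 1525 and 1699 CPM (log2 fold change −1.68 ± 0.46, adjusted p = 0.68), again without overlap. Of 30 mesenchymal genes tested, 21 (70%) had a log2 fold change below 0, where 54% of all genes did. In all 4 lines 4 (13.3%) were lower, where 7.65% of all genes were, and the list's median was −0.17. The lines differed, with medians of −0.44, −0.13, −0.59 and 0.39, and the list's median was −0.44 without C11 and −0.0335 without C5. COL1A1 was at 27498, 7377, 10576 and 1953 CPM and then 4503, 19553, 3839 and 9131, lower in C5 and C9 and higher in C7 and C11. VIM, the intermediate filament vimentin, was nearly level, at 8178, 5526, 4904 and 6032 and 5565, 5774, 4506 and 5601 CPM. Of 9 fibroblast markers, COL3A1 among them, 4 were lower in all 4 lines, where 7.65% of all genes were. The median log2 fold change of these markers was −0.93. Their summed level was 66960, 19800, 29800 and 10300 CPM at 0.5 mM and 12910, 33230, 9775 and 18190 at 2 mM, lower in C5 and C9 and higher in C7 and C11. Their part in the values of POSTN and COL3A1 was not tested.

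Several of the other genes ranked highest by p and lower in every line were enzymes and regulators. PECR, a peroxisomal reductase of fatty acid chain elongation, was at 17.8, 11.4, 16.2 and 19.2 CPM at 0.5 mM and 5.02, 5.1, 7.08 and 6.5 at 2 mM (log2 fold change −1.43 ± 0.272, adjusted p = 0.628), and it was called in the fit over 16 libraries (adjusted p = 0.03). EYA2, a transcriptional coactivator with phosphatase activity, was at 34.5, 6.02, 12.4 and 19.3 CPM and then 11.7, 2.74, 4.92 and 6.79 (log2 fold change −1.39 ± 0.251). CEP78, a centrosomal protein, was at 9.47, 5.6, 7.16 and 6.36 CPM and then 3.41, 1.89, 2 and 2.22 (log2 fold change −1.60 ± 0.3). These genes had close log2 differences in the 4 lines, with EYA2 between −1.56 and −1.13 and CEP78 between −1.83 and −1.47. SMCO3, a membrane protein, was at 0.768, 1.61, 0.923 and 1.64 CPM and then 0.134, 0.252, 0.158 and 0.314 (log2 fold change −2.51 ± 0.446), and ART4, an ADP-ribosyltransferase family member, at 0.43, 1.83, 2.7 and 1.87 CPM and then 0.0268, 0.41, 0.737 and 0.257 (log2 fold change −2.52 ± 0.519). The 2 genes are neighbours on the plus strand of chromosome 1 (ART4 from 48045860 to 48050453, SMCO3 from 48050698 to 48054209) and share no exonic bases. PLXNA4, a semaphorin receptor that shares 26 exonic bases with a microRNA gene, was at 0.184, 2.01, 2.67 and 2.3 CPM and then 0.0268, 0.0945, 0.316 and 0.0855 (log2 fold change −3.78 ± 0.589). The adjusted p of each of these genes but MMP7 was 0.628 in the paired edgeR fit.

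The 12 genes ranked highest among those higher at 2 mM in all 4 lines were mostly of low level, and none passed the test (adjusted p = 0.628 each). PCDH8, a protocadherin of cell adhesion, was at 1.57, 3.94, 3.67 and 1.61 CPM at 0.5 mM and 14.4, 12.5, 26.9 and 13 at 2 mM (log2 fold change 2.69 ± 0.375). SLC6A9, a glycine transporter, was the most abundant, at 70.1, 82.5, 70.8 and 40.3 CPM and then 155, 138, 192 and 131 (log2 fold change 1.26 ± 0.233). For both genes every library at 2 mM was above every library at 0.5 mM, as it was for 3.31% of all genes. RASD1, a Ras-related protein induced by glucocorticoids, was at 3.04, 11.2, 6.74 and 3.03 CPM and then 15.7, 27.6, 25.9 and 31.8 (log2 fold change 2.24 ± 0.408). CPN2, the regulatory subunit of carboxypeptidase N, was at 3.6, 8.48, 2.6 and 2.22 CPM and then 18.9, 30.7, 14.4 and 35.3 (log2 fold change 2.66 ± 0.426). VIL1, the microvillus actin-bundling protein villin, was at 1.91, 1.53, 1.85 and 2.35 CPM and then 5.53, 5.64, 7.85 and 8.27 (log2 fold change 1.83 ± 0.312), with single-line differences no wider apart than 1.52 and 2.07. C11orf52 was at 7.38, 7.63, 4.04 and 6.97 CPM and then 20.9, 18.1, 17.3 and 31.7 (log2 fold change 1.76 ± 0.29), and the nuclease gene DNASE1L2 at 5.32, 2.89, 1.07 and 2.4 CPM and then 24.3, 6.21, 7.24 and 20.4 (log2 fold change 2.29 ± 0.424). ZP1, an egg coat glycoprotein, was at 0.0307, 0.125, 0.374 and 0.238 CPM and then 0.617, 1.2, 2.16 and 1.17 (log2 fold change 2.91 ± 0.54). TMEM82 had at most 3 counts in each library at 0.5 mM, the floor used here per library, and was at 0.456, 0.536, 1.92 and 0.627 CPM at 2 mM, at least 11.01-fold higher (at least 6.56-fold without C9). In C11 at 0 and 1 mM, DNASE1L2 was at 35.6 and 14.6 CPM, CPN2 at 12 and 22.2, C11orf52 at 20.6 and 22.5, and SLC6A9 at 90.8 and 123. All of these were above C11 at 0.5 mM. PCDH8, RASD1, VIL1, ZP1 and TMEM82 in C11 at 0 mM were closer to their 0.5 mM than to their 2 mM level.

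LCP1, CD48 and SLAMF8, the other 3 of these 12 genes, are known from leukocytes. LCP1, the actin-bundling L-plastin (58 of its exonic bases are shared with another gene), was at 0.522, 1.08, 0.499 and 3.75 CPM and then 1.32, 10.8, 4.63 and 30.5 (log2 fold change 2.76 ± 0.457). SLAMF8 was at 0.4, 0.703, 0.449 and 0.475 CPM and then 2.39, 4.13, 6.85 and 2.22 (log2 fold change 2.81 ± 0.464), and CD48, another receptor of the SLAM family, at 0, 0.0753, 0.025 and 0.554 CPM and then 0.0268, 2.17, 1.61 and 4.48 (log2 fold change 4.26 ± 0.723). Of 9 macrophage markers tested, 3 (LYZ, CD14 and TLR4) were higher in all 4 lines, where 8.46% of all genes were. Each of the others was higher in 3 lines, and the median log2 fold change was 1.19. The summed level of the 12 markers in the table was 20.8, 26, 17.6 and 36.3 CPM at 0.5 mM. At 2 mM, this sum was 23.9, 41.8, 32.4 and 197 CPM. The highest sum was that of C11 at 2 mM, and without that library the 2 mM sums ended at 41.8. In C11 at 0 and 1 mM, LCP1 was at 42 and 30.8 CPM, CD48 at 7.22 and 7.76, and LYZ at 72.43 and 101.7. For LCP1, CD48 and LYZ, the library unlike the other C11 libraries was thus the one at 0.5 mM. SLAMF8 differed from them, at 0.401 and 1.17 CPM in C11 at 0 and 1 mM. PTPRC, the common leukocyte antigen CD45, was at 1.91, 5.57, 6.34 and 1.77 CPM and then 7.97, 1.73, 8.19 and 7.44, lower at 2 mM in C7. C1QA, C1QB and C1QC were at or under 0.132 CPM at 0.5 mM and at or under 1.48 at 2 mM. The part of leukocytes in these values was not tested.

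**Figure D3:**
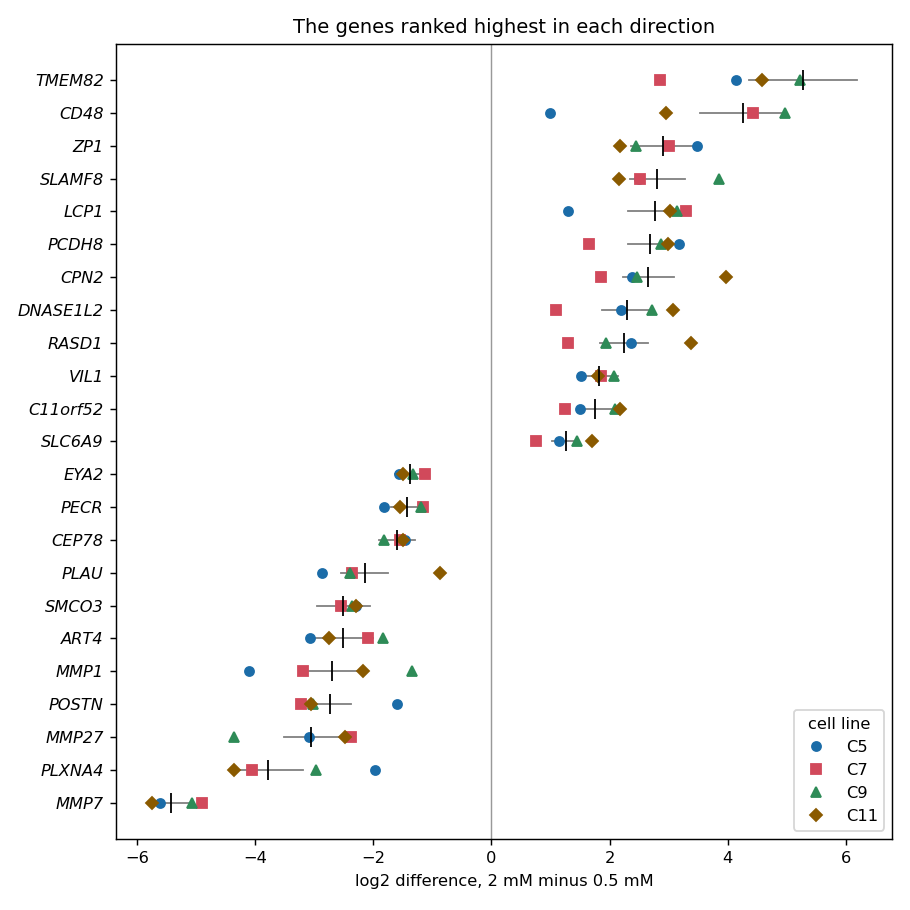
Log2 difference, 2 mM minus 0.5 mM metformin (horizontal axis), of the 12 genes ranked highest among those higher at 2 mM and 11 of the 12 among those lower, with 1 coloured point per cell line, a black tick for the edgeR log2 fold change and a grey bar of 1 standard error to each side. Only genes whose 4 lines shared a direction were ranked, which fixes the side of 0 on which the points lie, and MMP7 at the bottom has the largest difference.

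Paired DESeq2 called all 24 genes ranked highest in the 2 directions, and unpaired DESeq2 called 20 of them. The ranking used a paired test on these same libraries and doses, so neither the paired nor the unpaired calls are independent evidence. The genes were chosen for a gap between 0.5 and 2 mM. That choice by itself favours other doses lying between or on the 0.5 mM side. Levels at 1 mM and without metformin are therefore given as a description. Of the 12 genes lower at 2 mM, 12 had a mean log2 CPM at 1 mM between those at 0.5 and 2 mM, 6 of them in every line. Of the 12 genes higher at 2 mM, 11 did, 2 of them in every line. The exception was RASD1, with a mean of 4.80 at 1 mM and 4.61 at 2 mM. Without metformin, all 12 lower genes had a mean above that at 2 mM, and all 12 higher genes a mean below it. The 4 doses did not form one order for every gene. LCP1 had means of 2.00, 0.0685, 0.74 and 2.75 on the log2 scale at 0, 0.5, 1 and 2 mM, SLC6A9 means of 6.63, 5.99, 6.53 and 7.25, and MMP7 means of 3.61, 4.54, −0.31 and −0.79. MMP7 without metformin was at 94, 3.63, 2.66 and 24.1 CPM, so that C7 and C9 were far below C5 and C11. These levels were lower than at 0.5 mM in C7, C9 and C11, and higher in C5. At 1 mM, MMP7 was at 11, 0, 0.332 and 3.92 CPM, under its 0.5 mM level in every line. POSTN had means of 8.96, 9.15, 7.52 and 6.43 at 0, 0.5, 1 and 2 mM on the log2 scale.

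Angiogenesis receptors and ligands gave differences in both directions. FLT4, the receptor of VEGFC on lymphatic endothelium, was at 0.522, 5.55, 1.92 and 1.16 CPM at 0.5 mM and 6.07, 9.01, 16 and 6.81 at 2 mM (log2 fold change 2.47 ± 0.564, adjusted p = 0.628). APLNR, the apelin receptor, was at 0.4, 0.753, 0.449 and 0.185 CPM and then 1.48, 1.89, 4.34 and 1.03 (log2 fold change 2.22 ± 0.507, adjusted p = 0.628). The libraries of the 2 doses did not overlap for either receptor. FGFR1, a fibroblast growth factor receptor, was at 149.7, 229, 187 and 171 CPM and then 243, 279.7, 416 and 418 (log2 fold change 0.86 ± 0.248). ANGPT1, the agonist of the endothelial receptor TIE2, was at 4.79, 4.54, 3.87 and 6.39 CPM and then 2.28, 1.95, 1.5 and 1.34 (log2 fold change −1.47 ± 0.371), lower without overlap. Its antagonist ANGPT2 was at 4.73, 6.5, 2.62 and 2.59 CPM and then 98.9, 6.46, 53.1 and 24.4 (log2 fold change 3.17 ± 0.883), higher in C5, C9 and C11 and level in C7. PDGFRB, a receptor of pericytes and fibroblasts, was at 97.4, 139, 222 and 276 CPM and then 70.6, 53.2, 76.3 and 42.8 (log2 fold change −1.52 ± 0.384), also lower without overlap. VEGFA itself was at 184, 285, 129 and 74.8 CPM and then 286, 146, 136 and 278, lower in C7 alone. Of 24 genes tested in this list, 18 had a log2 fold change above 0, 3 (12.5%) were higher and 3 (12.5%) lower in all 4 lines, where 8.46% and 7.65% of all genes were, and the median was 0.45. None passed the edgeR test, and 6 had an unadjusted p under 0.05, where 6.78% of all genes did. Without C11 the median was 0.20, and without C7 it was 0.83. Paired DESeq2, which called 1.26% of all genes, called ANGPT2, APLNR and FLT4 as higher and ANGPT1 and PDGFRB as lower. Of the endothelial markers, CDH5 and SOX17 were at the floor in all 8 libraries. ERG was at 20.3, 28.7, 27.5 and 24.4 CPM and then 72.1, 13, 56.2 and 34.7. PECAM1 was at 4.58, 8.91, 14.4 and 15.2 CPM and then 13, 4.63, 20.1 and 10.5. VWF, KDR, TEK and TIE1 reached at most 1.77 CPM, and KDR was higher at 2 mM in all 4 lines. The list's summed level was 25.35 to 43.03 CPM at 0.5 mM and 19.1 to 87.3 at 2 mM.

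Most cytokines and targets of the inflammatory factor NF-kappa-B had log2 fold changes above 0, of very different size in the 4 lines. Of 28 members tested, 26 had a log2 fold change above 0 against 46% of all genes, and 7 (25%) were higher in all 4 lines, where 8.46% of all genes were. None passed the edgeR test, 4 had an unadjusted p under 0.05 (6.78% of all genes), and paired DESeq2 called 5 (1.26% of all genes). The median log2 fold change was 0.89, while the lines C5, C7, C9 and C11 had medians of 0.82, −0.22, 0.87 and 2.04. For C11, 28 of 28 members were higher at 2 mM, and C11 at 2 mM was the highest of the 8 libraries for 23 of the 29 listed genes. The library C11 at 0.5 mM was the one unlike the other C11 libraries in IL1B, and the list's median was 0.42 without C11 and 1.39 without C7.

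IL19, a cytokine of the IL10 family, was at 0.0922, 0.151, 0.0499 and 0.0528 CPM at 0.5 mM and 1.1, 0.756, 2.32 and 4.39 at 2 mM (log2 fold change 4.32 ± 0.844, adjusted p = 0.628), higher in every line without overlap. LITAF, a lipopolysaccharide-induced factor, was at 0.953, 0.351, 0.499 and 1.13 CPM and then 1.96, 2.08, 1.92 and 4.13 (log2 fold change 1.84 ± 0.436). TNFRSF18, the costimulatory receptor GITR, was at 1.04, 2.61, 0.849 and 1.11 CPM and then 6.25, 3.78, 10.5 and 4.36 (log2 fold change 2.18 ± 0.592). All 3 were higher in the 4 lines without overlap, at low levels. CSF3, the granulocyte growth factor, was at 107, 51.9, 37 and 37.2 CPM and then 349.7, 72.1, 532 and 2809.9 (log2 fold change 2.97 ± 1.07). IL6 was at 6.79, 5.75, 3 and 0.581 CPM and then 21.9, 17.1, 10.7 and 540.4 (log2 fold change 2.70 ± 1.39), higher in each line and most in C11. IL8, a neutrophil chemokine, was at 739, 449, 290.2 and 599 CPM and then 1922, 279.6, 2077 and 12619 (log2 fold change 2.02 ± 0.926), lower in C7. PTGS2, the prostaglandin synthase cyclooxygenase 2, was at 356, 341, 512 and 210.3 CPM and then 874, 54.6, 551 and 917, likewise lower in C7. In C11 at 0 and 1 mM, CSF3 was at 1882 and 1304 CPM, IL6 at 172.7 and 123.2, IL8 at 9422 and 7100, and LITAF at 5.51 and 4.38. For CSF3, IL6, IL8 and LITAF, the library unlike the other C11 libraries was thus the one at 0.5 mM. IL19 differed from them, at 0.374 and 0.653 CPM in C11 at 0 and 1 mM. Paired DESeq2 called IL19, LITAF, TNFRSF18, CSF3 and 1 of the 2 genes named CCL4 in this list.

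The transcripts of the mitochondrial genome, which encode core subunits of the respiratory chain including those of complex I, had medians above 0 in 3 lines. Of 13 genes, 12 had a log2 fold change above 0 and 3 (23.1%) were higher in all 4 lines, where 8.46% of all genes were. None passed the edgeR test, 4 had an unadjusted p under 0.05 (6.78% of all genes), and paired DESeq2 called ND3 and MT-ND2 (1.26% of all genes). The median was 0.61, 0.37 without C7 and 0.81 without C5. Lines C7, C9 and C11 had medians of 1.26, 0.74 and 0.45, and C5 one of −0.21, where 3 of 13 genes were higher. ND3, a complex I subunit, was at 244, 183, 186 and 246 CPM at 0.5 mM and 424, 1150.5, 669.5 and 569.8 at 2 mM (log2 fold change 1.62 ± 0.362, adjusted p = 0.628). MT-ND2, another complex I subunit, was at 888, 590.1, 505 and 745 CPM and then 1655, 3158, 1595 and 1688 (log2 fold change 1.54 ± 0.345, adjusted p = 0.628). For both transcripts the 2 doses did not overlap, and MT-ND2 was called in the fit over the 12 treated libraries with the length slope (adjusted p = 0.0427). ND4L, also of complex I, was at 345, 222, 251 and 406 CPM and then 405, 497, 453 and 513 (log2 fold change 0.65 ± 0.25). MT-CO1, a subunit of complex IV and the most abundant of these transcripts, was at 23089, 12558, 11257 and 16042 CPM and then 11436, 18219.7, 10605 and 16858 (log2 fold change −0.12 ± 0.455), higher in 2 lines and lower in 2. The nuclear subunits of complex I had a median of 0.0171 over 33 genes, with 0 higher or lower in all 4 lines, and the single-line medians ran from −0.64 in C5 to 0.81 in C7, so that the list's median was −0.21 without C7 and 0.25 without C5. Those of complexes II to V had a median of 0.0597 over 24 genes and also ran from −0.68 in C5 to 0.95 in C7 (−0.24 without C7 and 0.31 without C5). C5 and C7 are the lines whose length slopes moved most, in opposite directions, and ND3 has an exonic length of 351 bases and MT-ND2 of 1039. With the length slope as a covariate in the 8 libraries, the log2 fold change was 1.47 for ND3 and 1.42 for MT-ND2. The part of gene length in the list medians was not tested.

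**Figure D4:**
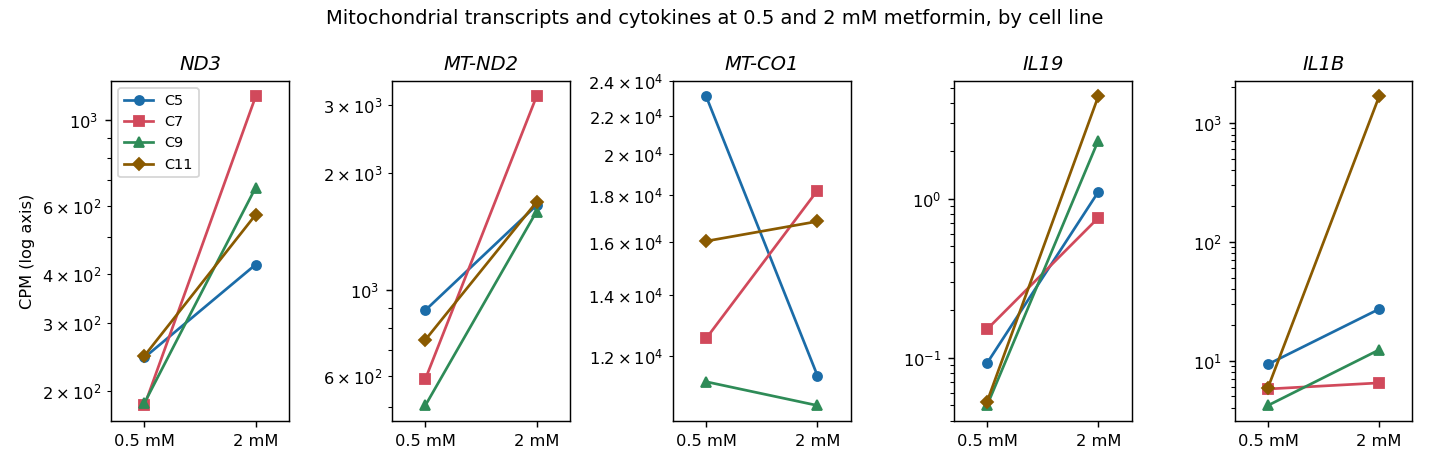
Levels in CPM (vertical log axis, a scale of its own for each gene) of the mitochondrial transcripts ND3, MT-ND2 and MT-CO1 and the cytokines IL19 and IL1B at 0.5 and 2 mM metformin, with a line joining the 2 libraries of each cell line. ND3, MT-ND2 and IL19 are higher at 2 mM in all 4 lines without overlap, MT-CO1 goes both ways, and IL1B stands out in C11 at 2 mM.

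Of 38 genes of DNA replication and S phase tested, 28 had a log2 fold change above 0 and 10 (26.3%) were higher in all 4 lines, where 8.46% of all genes were. None passed the edgeR test, 4 had an unadjusted p under 0.05 (6.78% of all genes), and paired DESeq2 called 1, CDC6 (1.26% of all genes). The median was 0.19, with −0.11 in C11, and it was 0.15 without C7 and 0.32 without C11. CDC6, which loads the replicative helicase, was at 2.92, 2.38, 1.37 and 1.29 CPM at 0.5 mM and 4.59, 6.68, 4.24 and 4.36 at 2 mM (log2 fold change 1.38 ± 0.361, adjusted p = 0.668). CCNE2, a cyclin of the entry into S phase, was at 1.26, 2.31, 1.07 and 0.528 CPM and then 2.5, 2.96, 2.74 and 1.51 (log2 fold change 1.04 ± 0.399). PCNA, the sliding clamp of the polymerases, was at 54.4, 93.3, 44.3 and 61.8 CPM and then 82.9, 100.2, 64 and 85.6 (log2 fold change 0.43 ± 0.198). CDC6 was the 1 member of the list (2.63%) that was higher without overlap between the doses, where 3.31% of all genes were. The 30 mitosis genes tested had a median of 0.31, with 1.26 in C9, −0.0659 in C5 and −0.0399 in C11, and it was 0.0317 without C9 and 0.56 without C11. AURKA, the mitotic kinase Aurora A, was at 18.4, 9.86, 2.5 and 4.51 CPM and then 21, 18.3, 9.29 and 5.53, and TPX2, its spindle activator, at 83.1, 43.8, 15.8 and 26 CPM and then 78.8, 88.6, 50.9 and 27.7.

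The lists on AMPK and mTOR, sterol synthesis, fatty acid synthesis and fatty acid oxidation held no gene called by edgeR and 1, MCEE, called by paired DESeq2, and their single lines disagreed. Over all genes, paired DESeq2 called 1.26%, and 6.78% had an unadjusted edgeR p under 0.05. Such a p was found for 0 genes of AMPK and mTOR, 0 of sterol synthesis, 2 of fatty acid synthesis and 2 of fatty acid oxidation. The 24 genes of AMPK and mTOR signalling tested had a median of −0.0063 (−0.12 without C5 and 0.0634 without C11). In all 4 lines 4 (16.7%) were higher and 0 lower, where 8.46% and 7.65% of all genes were. Without overlap 2 (8.33%), RHEB among them, were higher, where 3.31% of all genes were. RHEB, the GTPase that activates mTOR, was at 41, 42.1, 29 and 33.9 CPM and then 46.4, 53.8, 62 and 56.4 (log2 fold change 0.59 ± 0.243). SESN3, a stress-induced inhibitor of mTOR, was at 3.5, 18.6, 17.1 and 23.1 CPM and then 8.32, 2.87, 4.63 and 1.2 (log2 fold change −2.03 ± 0.974), higher in C5 and lower in the other lines. Sterol synthesis and uptake had a median of −0.0161 over 21 genes, with medians of 0.42, 1.61, −0.63 and −1.56 in the single lines, and it was −0.56 without C7 and 0.43 without C11. INSIG1, which holds back the sterol response, showed it at 249, 72.2, 187 and 214 CPM and then 251, 138, 77.9 and 53.6. The 19 genes of fatty acid synthesis tested had a median of −0.21, which was 0.0078 without C9 and 0.20 without C11, and −0.28 without C7. The triglyceride enzyme DGAT2 was at 4.33, 2.56, 9.86 and 4.35 CPM and then 1.05, 2.14, 2.71 and 2.94, lower in every line, and the elongase ELOVL1 at 193, 215, 207 and 246 CPM and then 303, 412, 345 and 253, higher in every line. In fatty acid oxidation, the median over 19 genes was −0.0612, and it was −0.20 without C7, 0.0342 without C9 and 0.0193 without C11. MCEE, the methylmalonyl-CoA epimerase, was at 5.35, 3.39, 3.69 and 4.46 CPM and then 1.18, 1.29, 1.24 and 1.85 (log2 fold change −1.60 ± 0.36), lower without overlap. UCP3, a mitochondrial carrier, was at 0.553, 0.276, 0.324 and 0.343 CPM and then 0.617, 0.725, 1.32 and 1.2 (log2 fold change 1.34 ± 0.529).

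Hexokinase 1 (HK1), the first enzyme of glycolysis, was at 558, 564, 375 and 439.6 CPM at 0.5 mM and 767, 698, 595 and 785 at 2 mM (log2 fold change 0.57 ± 0.222), higher without overlap, while PFKM, the muscle phosphofructokinase, was at 10.2, 5.77, 8.51 and 9.79 CPM and then 4.35, 5.86, 2.92 and 5.56 (log2 fold change −0.89 ± 0.367). The glycolysis list had a median of 0.25 over 20 genes (0.0628 without C7 and 0.41 without C11). In the TCA cycle, the median over 16 genes was −0.15, and −0.0761 without C11. SUCLA2, a succinyl-CoA ligase subunit, was at 48.9, 51.6, 49 and 52.7 CPM and then 48.7, 23.2, 44.9 and 46.6, and PDHB, of pyruvate dehydrogenase, at 102, 99, 111 and 129 CPM and then 96.6, 96.8, 90.3 and 78.2. Neither overlapped between the doses, yet their log2 fold changes were −0.36 and −0.28. Among lipid carriers, APOC3, an inhibitor of lipoprotein lipase, was at 1.29, 0.828, 0.824 and 2.77 CPM and then 0.0268, 0.126, 0.184 and 0.0285 (log2 fold change −3.88 ± 0.91, adjusted p = 0.651), and lipoprotein lipase itself (LPL) was at 64.4, 96.1, 106 and 69.1 CPM and then 32.7, 84.9, 64.3 and 26.8 (log2 fold change −0.81 ± 0.257). Both were lower in every line, and paired DESeq2 called APOC3. The lipid carrier list had a median of −0.31 over 19 genes, with −0.60, 0.36, 0.34 and −0.56 in the single lines. Leaving out C7 took it to −0.52, and leaving out C5, C11 or C9 to −0.0371, −0.0884 or −0.18.

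Among stress genes, none passed the edgeR test, and paired DESeq2, which called 1.26% of all genes, called STC2, HSPB9 and GSTA4. RBM3, an RNA-binding protein induced by cold, was at 235, 228, 253 and 260.0 CPM and then 129, 149.8, 121 and 132 (log2 fold change −0.88 ± 0.194, adjusted p = 0.628), lower in every line without overlap. STC2, a glycoprotein induced by the integrated stress response, was at 2.43, 6.9, 7.69 and 8.5 CPM and then 12, 13, 20.7 and 13.5 (log2 fold change 1.32 ± 0.364), and ATF3, a transcription factor of that response, at 48.3, 96.2, 63.2 and 128 CPM and then 144, 60.6, 169 and 302 (log2 fold change 0.92 ± 0.426). The list had a median of 0.21 over 21 genes (0.0775 without C7 and 0.33 without C5). The small heat shock protein gene HSPB9 was at 36.9, 417, 139 and 83.9 CPM and then 225, 351, 695 and 439 (log2 fold change 1.83 ± 0.552), and the HSP70 partner DNAJB1 at 47.9, 75.4, 57.8 and 59.3 CPM and then 66, 115, 98.8 and 76.3 (log2 fold change 0.55 ± 0.191). For the heat shock list the median was 0.15 over 25 genes (0.0869 without C5 and 0.31 without C11). The unfolded protein response of the endoplasmic reticulum had a median of 0.0209 over 24 genes (−0.034 without C7 and 0.15 without C11). Its chaperone HSP90B1 was at 506, 218, 316 and 426 CPM and then 318, 169, 258 and 280.3, and its sensor ATF6 at 104, 110.4, 94.8 and 94.6 CPM and then 120.5, 142, 133 and 165, with 342 exonic bases shared with another gene. NDRG1, a hypoxia-induced gene, was at 150.4, 99.6, 108 and 135 CPM and then 62.8, 91.5, 41 and 33.7 (log2 fold change −1.20 ± 0.34), and the hypoxia factor HIF1A at 524, 370.4, 467 and 587 CPM and then 437, 162, 437 and 364, both lower in every line. The hypoxia list had a median of −0.22, which was −0.27 without C9 and 0.0125 without C11. Glutathione transferase GSTA4 was at 3.9, 0.627, 0.674 and 1.16 CPM and then 0.403, 0.41, 0.0527 and 0.171 (log2 fold change −2.52 ± 0.676), and GSTA3 at 7.59, 1.08, 1.6 and 21.4 CPM and then 6.33, 11.6, 25.7 and 36.1 (log2 fold change 1.97 ± 0.878), lower in C5 only.

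The immediate early genes had a median of 0.50 over 28 tested, of which 5 (17.9%) were higher in all 4 lines, where 8.46% of all genes were, and it was 0.38 without C11 and 0.68 without C5. NR4A1, an orphan nuclear receptor of this class, was at 7.56, 16.9, 4.32 and 1.72 CPM and then 19.9, 17.3, 34.5 and 49.6 (log2 fold change 2.28 ± 0.865), nearly level in C7. Interferon-stimulated genes had a median of 0.35 over 19, with −0.70 in C7. It was 0.0226 without C11, 0.20 without C7 and 0.36 without C9. IFI6, a mitochondrial protein induced by interferon, was at 0.768, 2.94, 0.524 and 0.317 CPM and then 5.8, 3.18, 3.42 and 4.85 (log2 fold change 2.45 ± 0.729), and IFIT5, an RNA-binding antiviral protein, at 0.0922, 3.79, 0.474 and 0.158 CPM and then 4.75, 1.61, 4.87 and 5.5 (log2 fold change 3.43 ± 1.39), lower in C7. The 15 epithelial junction genes tested had a median of 0.28 (0.0354 without C9 and 0.36 without C7). RAB25, an epithelial recycling GTPase that shares 172 exonic bases with another gene, was at 0.0615, 0.577, 0.2 and 0.158 CPM and then 0.939, 1.42, 1.66 and 1.54 (log2 fold change 2.78 ± 0.613, adjusted p = 0.628), higher without overlap. ELF3, an epithelial transcription factor, was at 1.97, 0.878, 1.87 and 3.83 CPM and then 0.805, 0.567, 0.606 and 2.22 (log2 fold change −1.08 ± 0.4), lower in every line. The 17 aminoacyl-tRNA synthetases tested had a median of 0.0321 (−0.12 without C7, −0.0247 without C5 and 0.0697 without C9). DARS and WARS1 were lower in every line without overlap, with log2 fold changes of −0.47 and −0.46. The antioxidant list had a median of 0.0982 over 32 genes (−0.0593 without C7 and 0.29 without C5). Paired DESeq2, which called 1.26% of all genes, called NR4A1, IFI6, IFIT5 and RAB25.

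**Figure D5:**
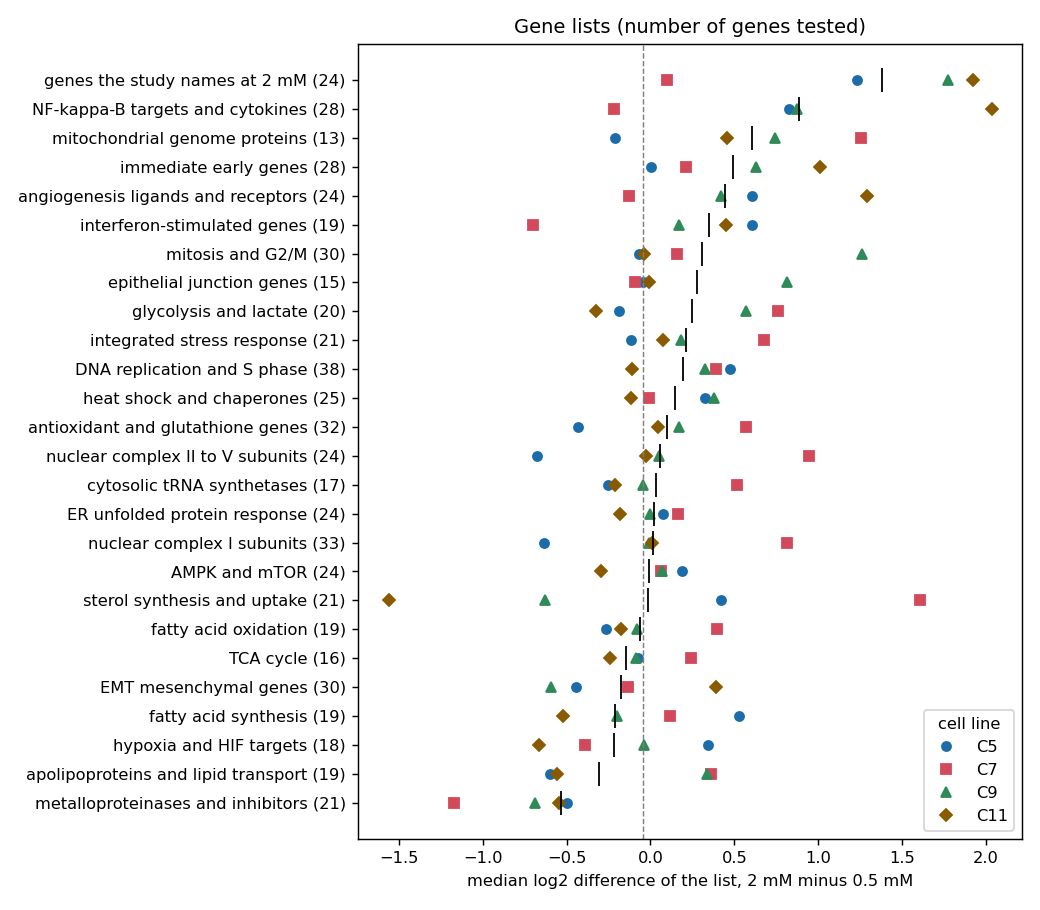
Median log2 difference, 2 mM minus 0.5 mM metformin (horizontal axis), of 26 gene lists, with 1 coloured point per cell line, a black tick for the median of the edgeR log2 fold changes and the number of genes tested in brackets. The dashed line marks the median of all genes (−0.0422). The metalloproteinase list at the bottom has all 4 lines below 0, and sterol synthesis spreads from −1.56 to 1.61.

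Genes that the study names for 2 mM metformin were followed as a list, which is not independent evidence, since they were chosen on these same 2 mM libraries against untreated cells. Of 31 such genes with counts, 24 were tested. MMP7 was the 1 gene called, and 9 (37.5%) were higher and 6 (25%) lower in all 4 lines, all of them without overlap, where 3.31% of all genes were higher and 2.88% lower without overlap. The median log2 fold change was 1.38, with 0.10 in C7, and it was 1.15 without C9 and 1.79 without C7. DCX, a microtubule protein of neurons, was at 2.12, 12.6, 6.91 and 7.49 CPM and then 0.939, 1.07, 0.632 and 2.08 (log2 fold change −2.51 ± 0.555), and HEY2, a target of Notch signalling, at 8.05, 17.8, 11.6 and 6.36 CPM and then 19.6, 20.7, 33.5 and 26.3 (log2 fold change 1.28 ± 0.362). TK1, the thymidine kinase of S phase, was at 103, 63, 97.8 and 103 CPM and then 186, 166, 159.7 and 95.4 (log2 fold change 0.71 ± 0.287), higher in 3 lines, and FOS, an immediate early gene, at 63.6, 32.7, 61.1 and 13.2 CPM and then 34.9, 70.6, 57.4 and 82.4, higher in 2.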

How the data were processed

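RNA was sequenced by the authors from 4 COVCAR lines at 4 metformin doses (stranded mRNA libraries). They aligned reads with HISAT2 2.1.0 to GRCg6a and counted them per gene on exons with featureCounts, by strand and with reads over overlapping genes given to each, and deposited raw counts without normalization for 23910 genes, 10393 of them without a symbol. The exonic length is an other column that the authors deposited beside the counts. Their DESeq2 tables hold comparisons with untreated cells and were not used.

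The count columns were mapped to line and dose by the labels. The 8 libraries at 0.5 and 2 mM were tested in R 4.3.3 with edgeR 4.0.16 (TMM, filterByExpr, glmQLFit and glmQLFTest, two-sided) with the cell line as a block, since each line comes from 1 hen. This left 3 residual degrees of freedom. The 12 treated libraries formed a second fit. Deviations of the 2 libraries of a line from their dose means correlated at −0.423, −0.154, 0.604 and −0.157 in C5, C7, C9 and C11. Only for C9 was the 2 mM library of the same line the best match of the 4. Single-line differences are of log2 CPM with a prior count of 1, and CPM of all 16 libraries are on the scale of the 8. The floor was 3 counts in every library of a group, and it covers counting error only. The paper reports replicates of each treatment, and whether a library holds RNA of more than 1 of these wells is not stated. With the line as a block, p-values set the difference between the doses against its variation from line to line, library noise included. The quasi-likelihood fit of edgeR moderates the estimate of this variation across genes.

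Named genes were the 12 with the smallest p in each direction among those with a symbol and one direction in all 4 lines, and per list the members past the criteria (at most 4) or else the 2 with the smallest p. Members named beyond that rule (in the chromosome 1 neighbourhood, and among proteases, mesenchymal genes, angiogenic factors, cytokines, mitochondrial and S phase genes, and genes of the study) were chosen after their values were seen. The comparison, lists and markers were chosen with earlier results of these data known. Alternatives were DESeq2 1.42.0 with and without the block, no block, RLE normalization, dropping the count filter, a filter on a mean of 1 CPM, the length slope as a covariate, 16 libraries and each line left out. Leaving out the single library C11 at 0.5 mM was added after the data were seen. The scripts were tested on simulated data. The values of 1 of the named genes lower at 2 mM are not reported here.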

Additional observations from a re-analysis of the deposited data

Results flagged for a closer look

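Of 142 groups of 4 libraries (71 named genes at 2 doses), 9 held a library far from the other 3 by Dixon's criterion on log2 CPM, which chance flags in about 1 of 20 groups. At 0.5 mM, C9 was low for MMP7 (4.418 CPM, the others 34.66 to 50.48) and for C11orf52 (4.043, the others 6.967 to 7.63). C5 at 0.5 mM was low for PLXNA4 (0.1844 CPM, the others 2.008 to 2.671), SESN3 (3.503, the others 17.12 to 23.06) and STC2 (2.428, the others 6.902 to 8.497). C7 at 2 mM was high for MT-ND2 (3158 CPM, the others 1595 to 1688) and low for SUCLA2 (23.19, the others 44.89 to 48.74) and IFIT5 (1.607, the others 4.751 to 5.503). C11 at 2 mM was high for LITAF (4.134 CPM, the others 1.922 to 2.08), which was also at 5.51 CPM in C11 at 0 mM and 4.38 at 1 mM.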

How the results depend on the processing

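The count of 1 gene past the criteria held with RLE normalization, without a count filter and with a mean of at least 1 CPM. It was 0 without the replicate block (1311 genes at an unadjusted p under 0.05), 0 with the block and the length slope (2197), 0 over the 12 treated libraries (1705), 0 to 0 when 1 line was left out (254 to 2185) and 0 without the block and the library C11 at 0.5 mM (939). It was 2 (POSTN and PECR) over 16 libraries. DESeq2 called 243 genes with the block and 304 without it, 169 of them in both. In the fit of the 12 treated libraries, 0 genes passed, 519 in DESeq2, 18 with the length slope (5 higher and 13 lower), and 0 to 1 without 1 line, the 1 being POSTN without C5. Leaving out the library C11 at 0.5 mM gave 0 there. Of 71 named genes, 64 to 71 were fitted per alternative, and none reversed its direction in any of the 14. They were chosen for a small p in these same libraries, which by itself makes a reversal unlikely. Paired DESeq2 called 41 of them, a number that the same choice favours. The block changed no other call in edgeR. All 378 list medians under the alternatives moved by less than 1 SD of the 4 single-line medians, a wide margin: without 1 line, 10 of the 27 lists changed the sign of their median and 14 others moved by over 1.5 times.

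With 4 pairs and 3 residual degrees of freedom, adjusted p-values near 0.6 do not show that genes were level. The depth of at least 34724071 counts per library leaves genes under about 0.1 CPM with a few counts each.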
